A study of Mus musculus with 6 samples.

Results

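Metallothioneins and the genes of zinc transport were followed in mouse macrophages exposed to oxidised low-density lipoprotein (oxLDL). The set held 6 genes of the 24054 in the deposited tables: the metallothioneins Mt1 and Mt2, the zinc-sensing factor Mtf1, the zinc exporter Slc30a1 and the zinc importers Slc39a1 and Slc39a14. They were chosen by symbol with earlier results of these data known, among them the oxLDL contrast of Mt1 and Mt2. Their values in that contrast are therefore given as a description with no p-value, and how many of them passed the threshold is stated once, beside the share of all genes that did, and supports nothing.

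Bone marrow of wild-type C57BL/6 mice was grown into macrophages over 7 days in medium conditioned by L929 cells, a fibroblast line that secretes the growth factor CSF1. Of the 6 samples, 3 were exposed to oxLDL at 50 µg/ml for 24 hours and 3 were left untreated. Both groups carried the numbers WT1, WT2 and WT3, and samples were compared within each number. Titles also carry an unexplained word, mix, and nothing said that the samples were separate cultures or animals. A p-value here measures only the spread between these samples.

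Libraries held 13546572 to 15559310 expected counts. All 7 macrophage markers in the table passed the count filter. Their summed level was 11864 to 35289 CPM (counts scaled to library size by TMM) untreated and 9065 to 16565 CPM with oxLDL. The groups did not overlap for 3 of the 7, against 21.1% of tested genes, and 0 of the 7 passed in the edgeR fit used below, against 5.89%. Mean Emr1 went from 6271 to 1434 CPM and Itgam from 2127 to 465 CPM, while Cd68 went from 1010 to 1528 CPM. Of the 7, only Cd68 had a positive log2 fold change. Mrc1 measured 717, 961 and 40.1 CPM in untreated samples 1, 2 and 3. Markers of lymphocytes, mast cells and erythroid cells summed to less than 1 CPM in each sample, stromal markers to at most 2.12 CPM, and neutrophil markers to 2.68 to 15.1 CPM untreated and 3.01 to 3.68 CPM with oxLDL. Dendritic cell markers summed to 4.34 to 8.76 CPM untreated and 3.56 to 15.4 CPM with oxLDL. The libraries numbered 3 stood apart. Across genes, untreated sample 3 correlated with oxLDL sample 3 at r = 0.964 in log2 CPM and with untreated samples 1 and 2 at 0.889 and 0.897. Values are therefore given per numbered pair.

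Metallothioneins are small cytosolic proteins rich in cysteine that hold zinc and copper. Free zinc in the cytosol activates MTF1, which binds metal response elements in promoters and switches on the metallothioneins and the exporter SLC30A1. Transporters of the SLC30 family move zinc out of the cytosol, and those of the SLC39 family move it in. Oxidants can release zinc from metallothioneins, and macrophages use zinc transport to feed or starve the microbes they engulf.

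Because MTF1 acts through its element, the promoters of the 3 members best known as its targets are shown, with each match to the core of the element in capitals. The core searched was TGCACNC or TGCGCNC on either strand, where N is any base. A capital run that starts with G is a match on the opposite strand. The sequences are from RefSeq on build GRCm38.p6, plus strand, and each stretch ends 30 bases into the annotated transcript. Mt1 is shown from chr8:94178969-94179118, Mt2 from chr8:94172368-94172647 and Slc30a1 from chr1:191906661-191906810.
Mt1: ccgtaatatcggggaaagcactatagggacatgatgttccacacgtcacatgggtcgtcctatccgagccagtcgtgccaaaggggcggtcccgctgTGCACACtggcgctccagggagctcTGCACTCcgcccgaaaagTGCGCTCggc
Mt2: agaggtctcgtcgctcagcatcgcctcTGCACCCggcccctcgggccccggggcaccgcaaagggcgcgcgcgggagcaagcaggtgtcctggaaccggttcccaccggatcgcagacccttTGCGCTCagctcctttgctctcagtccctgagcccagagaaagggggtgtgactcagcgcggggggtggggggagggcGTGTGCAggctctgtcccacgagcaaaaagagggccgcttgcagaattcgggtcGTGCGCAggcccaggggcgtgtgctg
Slc30a1: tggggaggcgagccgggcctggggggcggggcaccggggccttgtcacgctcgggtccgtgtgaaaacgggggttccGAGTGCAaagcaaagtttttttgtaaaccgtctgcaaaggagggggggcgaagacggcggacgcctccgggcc

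In windows from 250 bases before to 50 after the annotated start, Mt1 held 3 matches and Mt2 held 4. The matches of Mt1 at bases 3 to 9 and 21 to 27, and that of Mt2 at 5 to 11, lay past the annotated start. Whether transcription began at the annotated start in these cells was not tested, and the counts depend on it. Among all 32851 windows of that length, 1.97% held at least 3 matches and 0.517% at least 4. Slc30a1 held 2 matches, the second of them at bases 31 to 37 of the transcript and so beyond the stretch printed, and 7.11% of all windows held at least 2. The windows of Mtf1 and Slc39a1 held none, while 25.7% of all windows held at least 1. A match describes letters in a window and is not a measured binding site.

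The core of the antioxidant response element, TGAC followed by any 3 bases and GC, is the element bound by NRF2. It was found once in Mt2, at bases -79 to -71 from the start, once in Slc30a1, at -82 to -74, and once in Slc39a1, at -63 to -55. Among all windows 12.4% held at least 1 match. The windows of Mt1 and Mtf1 held none. Bases outside the windows were not searched, so a match beyond them in any of these genes would not be counted. Matches of the 2 elements did not overlap in these 5 windows.

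**Figure D1:**
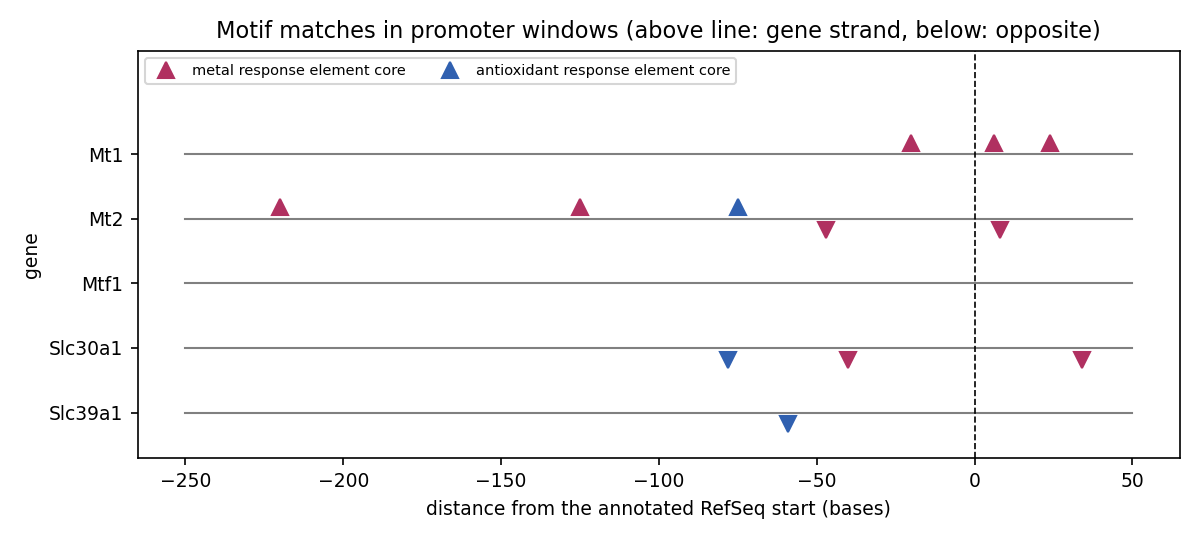
Matches to the cores of the metal response element (red) and the antioxidant response element (blue) in the promoter windows of 5 of the genes, by distance in bases from the annotated RefSeq start (dashed line). Triangles above a line are on the strand of the gene and those below on the opposite strand; Mt1 and Mt2 hold 3 and 4 red marks and Mtf1 holds no mark.

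Both metallothioneins were higher with oxLDL in each numbered pair, and their log2 fold changes were the largest of the 6 members in the blocked fit. Without oxLDL, Mt1 lay at 19.8, 20.9 and 34.6 CPM in samples 1, 2 and 3. The exposed samples 1, 2 and 3 lay at 67.7, 57.3 and 64.0 CPM. The groups did not overlap, and the untreated sample highest in Mt1 was number 3. The means were 25.1 ± 8.25 and 63.0 ± 5.23 CPM (SD, n = 3 per group). In the fit with the number as a block the log2 fold change was 1.37 ± 0.20 (SE), a fold of 2.58. Without the block it was 1.33 ± 0.25. The log2 ratios of pairs 1, 2 and 3 were 1.77, 1.45 and 0.88. Bulk RNA cannot tell fewer cells of a type from less RNA per cell, for this gene or any other below.

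Mt2 measured 6.07, 4.54 and 20.1 CPM untreated and 22.1, 20.4 and 43.7 CPM with oxLDL. The groups were parted narrowly: untreated sample 3, at 20.1 CPM, lay just under oxLDL sample 2, at 20.4 CPM. The log2 fold change was 1.69 ± 0.24, a fold of 3.23, and 1.49 ± 0.65 in the fit without the block. Pairs 1, 2 and 3 stood at 1.84, 2.14 and 1.12 on the log2 scale. Pair 3 had the smallest log2 ratio of both metallothioneins. On the linear scale this was not so for Mt2, whose difference in CPM was 16.1, 15.9 and 23.6 in pairs 1, 2 and 3. For Mt1 the differences were 47.9, 36.4 and 29.4 CPM. Slc30a1, described below, had larger differences in CPM than either metallothionein in pairs 1 and 2, at 57.0 and 73.6. CPM is not scaled to transcript length, and the longest coding transcripts of Slc30a1, Mt1 and Mt2 have 5244, 1085 and 511 bases. Per kilobase of these, pair 1 went from 10.1 to 21.0 for Slc30a1, 18.2 to 62.4 for Mt1 and 11.9 to 43.3 for Mt2. Pair 2 went from 12.4 to 26.5, 19.3 to 52.9 and 8.88 to 40.0. Per kilobase, Slc30a1 therefore had a smaller difference than either metallothionein in pairs 1 and 2.

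The balance between both metallothioneins differed with the sample number. The ratio of Mt1 counts to Mt2 counts was 3.26, 4.62 and 1.72 in untreated samples 1, 2 and 3. With oxLDL it was 3.06, 2.81 and 1.46. The ratio was lower with oxLDL in each pair, by the most in pair 2, and both samples numbered 3 lay below the other 4. No error was computed for these ratios. The close values of pair 1, 3.26 and 3.06, rest on 89 and 329 counts of Mt2. Counts of Mt1 and Mt2 were whole numbers throughout. RSEM divides reads that match several genes, which leaves counts that are not whole. Mt2 rested on the fewest counts of the members, 63 to 604 per sample, and Mt1 on 290 to 1006.

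Mt3 and Mt4 lie beside Mt2 and Mt1 in the RefSeq gene order, Mt4, Mt3, Mt2 and Mt1, between Bbs2 and Nup93. They are known for expression in brain and in stratified epithelium, respectively. Mt4 had 0 counts in all 6 samples, which allows up to 3 counts per library, or 0.200 to 0.217 CPM, by counting error alone. Mt3 had at most 2 counts in a sample. Neither was tested.

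**Figure D2:**
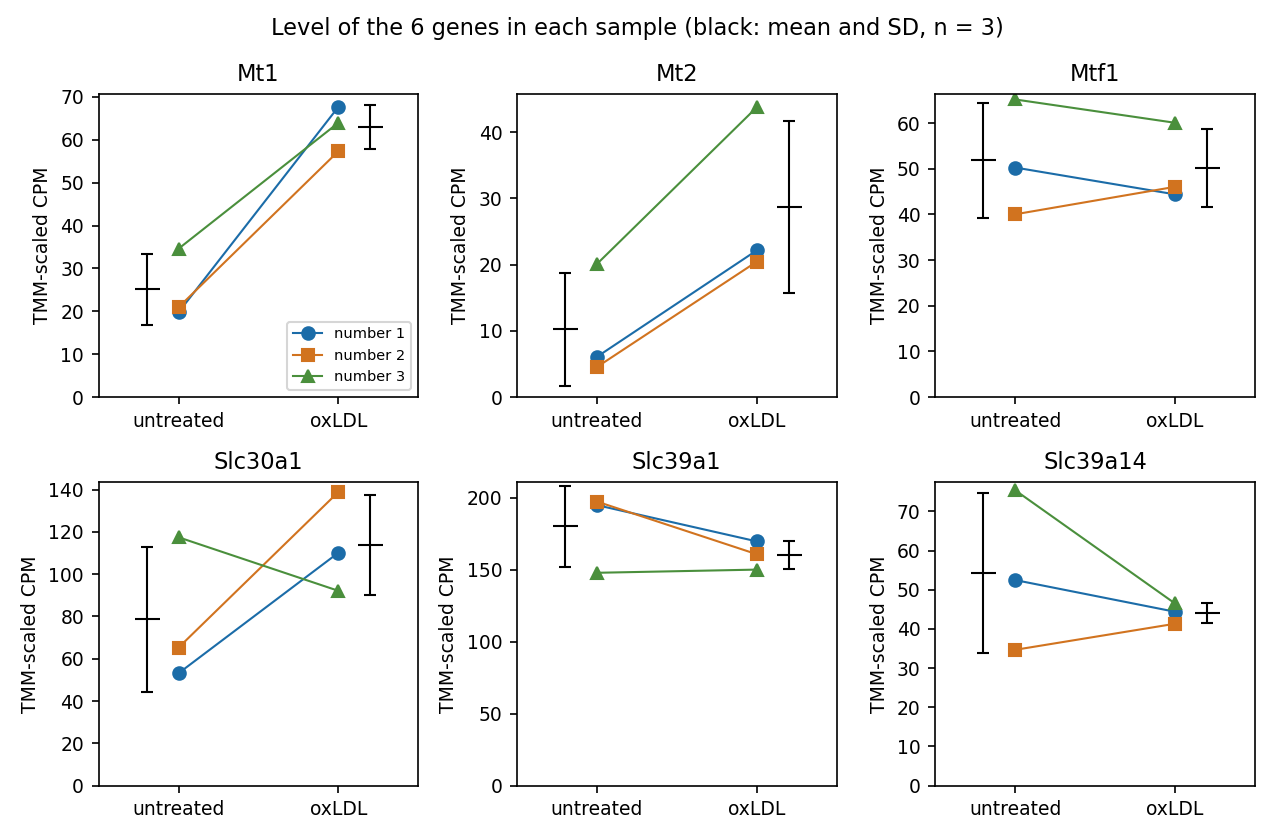
TMM-scaled CPM (y axis, from 0) of the 6 genes in untreated and oxLDL samples; coloured lines join samples of the same number, and black bars give the mean and SD of 3 samples. Mt1 and Mt2 rise along each line, whereas for Slc30a1 the line of number 3 falls while the other 2 rise.

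Mtf1, which encodes the zinc-sensing factor, differed between the groups by less than its standard error. It measured 50.3, 40.0 and 65.2 CPM untreated and 44.4, 46.0 and 60.1 CPM with oxLDL. The groups overlapped, and sample 3 was the highest of each group. The log2 fold change was -0.03 ± 0.12 and had the opposite sign when libraries were scaled by their totals (0.07). The pairs had log2 ratios of -0.18, 0.20 and -0.12. In 5 samples its count was a fraction. Transcript levels carry no information on whether the protein was bound to zinc or in the nucleus.

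Slc30a1, the exporter in the plasma membrane, moved apart by pair. It measured 53.2, 65.3 and 117 CPM untreated and 110.1, 139 and 92.1 CPM with oxLDL. It was higher with oxLDL in pairs 1 and 2, at log2 ratios of 1.05 and 1.09, and lower in pair 3, at -0.35. Untreated sample 3 was above oxLDL samples 1 and 3, so the groups overlapped. Over the 3 pairs the log2 fold change was 0.60 ± 0.33. With pair 1, 2 or 3 left out it was 0.36 ± 0.42, 0.35 ± 0.41 and 1.07 ± 0.11. Only pair 3 had the opposite sign, so leaving it out was bound to raise the value. With 1 library per group in a pair, whether pair 3 differed from the others was not tested. Counts of Slc30a1 were fractions in all 6 samples.

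Slc39a1, an importer of the plasma membrane also known as ZIP1, measured 195, 197 and 148 CPM untreated and 169.7, 161 and 150.1 CPM with oxLDL. The groups overlapped at the samples numbered 3, which were the lowest of their groups. A log2 fold change of -0.16 ± 0.13 resulted, with pair ratios of -0.20, -0.30 and 0.02.

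Slc39a14, known as ZIP14, imports zinc and also manganese and iron that is not bound to transferrin. It measured 52.5, 34.7 and 75.4 CPM untreated and 44.4, 41.3 and 46.5 CPM with oxLDL. The oxLDL samples lay within the range of the untreated ones, and their SD was 2.62 CPM against 20.4 CPM. The log2 fold change was -0.23 ± 0.20. It was -0.24, 0.25 and -0.70 in pairs 1, 2 and 3. With pair 1, 2 or 3 left out it came to -0.23 ± 0.30, -0.47 ± 0.20 and 3.89e-05 ± 0.14. In 3 samples its count was a fraction.

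**Figure D3:**
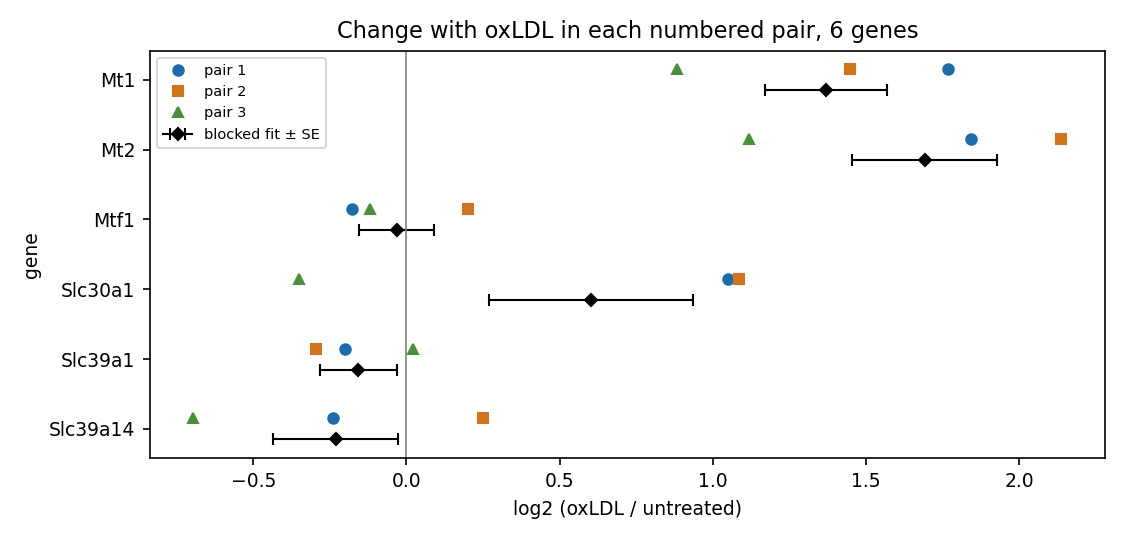
Log2 ratio of oxLDL to untreated (x axis) for the 6 genes in each numbered pair (coloured symbols), with the estimate of the blocked fit and its SE (black diamonds). Mt1 and Mt2 lie right of 0 in each pair, from 0.88 to 2.14, and pair 3 lies on the other side of 0 from pairs 1 and 2 for Slc30a1 and Slc39a1.

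Over the 6 members, 2 were past an adjusted p of 0.05 in edgeR's quasi-likelihood test with the block, both higher with oxLDL, and 1.91% of the 11400 tested genes were called higher and 3.98% lower. Without the block, or with pair 1 or pair 2 left out, edgeR called 0 of all genes and so neither of these 2. Groups did not overlap, with oxLDL higher, for the same 2, against 10.5% of tested genes. These shares are given as background only, since the contrast was known when the members were chosen. The median log2 fold change of the members was 0.29, and that of all tested genes 0.01. By size of the log2 fold change, regardless of sign, Mt1 exceeded 92.4% of tested genes and Mt2 94.7%, whereas Slc30a1 exceeded 75.2% and Mtf1 7.09%.

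Per kilobase of the longest coding transcript in GENCODE M21, untreated levels were 76.2 ± 11.8 CPM per kb for Slc39a1, 23.1 ± 7.60 for Mt1, 20.0 ± 16.8 for Mt2, 10.1 to 22.4 for Slc30a1, 7.04 to 15.3 for Slc39a14 and 6.79 ± 1.66 for Mtf1 (SD, n = 3). Slc39a1 lay above the other 5 in each untreated sample, whereas the ranges of Mt1, Mt2 and Slc30a1 overlapped. With oxLDL, Slc39a1 was at 67.8 ± 4.16 CPM per kb, Mt1 at 58.1 ± 4.82 and Mt2 at 56.3 ± 25.4. The order of these levels depends on the transcript used. With the shortest coding transcript of 549 bases in place of 1085, Mt1 came to 45.8 untreated and 115 CPM per kb with oxLDL, above Slc39a1 in the latter. With its shortest transcript of 388 bases, Mt2 came to 26.4 and 74.1 CPM per kb and its mean with oxLDL also lay above that of Slc39a1.

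The other members of both transporter families were examined in full. Of 21 such genes in the table, 14 passed the count filter, and of these 2 rose, 1 fell and 11 did not pass, beside 5.89% of all tested genes called in either direction. Their median log2 fold change was 0.12, against 0.01 over all tested genes. The groups did not overlap for 4 of the 14, against 21.1% of tested genes. Without the block none of the 14 passed in edgeR, while 4 had an unadjusted p under 0.05, as did 14.7% of all tested genes. With the block, leaving out pair 1 or pair 2 also left 0 called, with 4 and 5 genes at an unadjusted p under 0.05. Over all genes these fits also called 0, with 1613 of 11492 and 1617 of 11478 at an unadjusted p under 0.05. Leaving out pair 3 gave 7 of these transporter genes, beside 3446 of all 11543 genes tested in that fit.

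Slc30a4, a transporter of endosomes and lysosomes known as ZnT4, rose with oxLDL. It measured 19.6, 20.4 and 31.7 CPM untreated and 50.05, 59.9 and 62.5 CPM with oxLDL. The log2 fold change, 1.29 ± 0.15, had an adjusted p in edgeR of 0.0291 in the blocked fit and of 0.103 in the unblocked one. Its groups did not overlap, and untreated sample 3 was the highest of its group, as for Mt1. Its promoter window held 3 matches to the metal response element core, as many as that of Mt1. The match at bases -6 to 1 spanned the annotated start. Among all windows 1.97% held at least 3 matches, and any part of the matches in this rise was not tested.

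Slc39a11, known as ZIP11, also rose, from 31.1, 32.0 and 27.5 CPM to 59.1, 63.6 and 49.4 CPM. Its log2 fold change, 0.92 ± 0.10, had an adjusted p in edgeR of 0.0287 in the blocked fit and 0.0952 unblocked, and the pairs were close to each other at 0.93, 0.99 and 0.84. Slc39a13, known as ZIP13, a transporter of intracellular vesicles and the Golgi, fell. It measured 112, 73.1 and 24.6 CPM untreated and 18.4, 17.0 and 9.55 CPM with oxLDL. Its log2 fold change, -2.04 ± 0.26, had an adjusted p in edgeR of 0.0348 in the blocked fit and 0.185 unblocked. The groups were apart, and sample 3 was the lowest of each.

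Slc39a4, the importer known for zinc uptake in the gut, had groups that did not overlap (17.7 ± 1.84 and 27.9 ± 2.38 CPM) and a difference of 0.65 ± 0.14 on the log2 scale, short of the threshold in edgeR (adjusted p = 0.0685). Slc30a5, which loads zinc into the early secretory pathway, stood at -0.54 ± 0.12, also short of it in edgeR (adjusted p = 0.0675). Its partners in that pathway, Slc30a6 and Slc30a7, had values of 0.23 ± 0.15 and -0.05 ± 0.12. DESeq2 with the block called Slc39a4 and Slc30a5 beside the 3 genes above. Slc39a8, an importer of zinc and manganese, had a value of -0.42 ± 0.16 with fractional counts in all 6 samples.

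Slc39a10, like Slc30a1, had pair 3 on the other side of 0 from pairs 1 and 2, with log2 ratios of 0.71, 0.57 and -0.71 and a log2 fold change of 0.21 ± 0.31. Slc39a7, which releases zinc from the endoplasmic reticulum, had a value of 0.18 ± 0.20. The remaining log2 fold changes were 0.13 ± 0.12 for the mitochondrial Slc30a9, 0.12 ± 0.15 for Slc39a6, 0.11 ± 0.12 for Slc39a3 and 0.03 ± 0.11 for Slc39a9, and none of these passed. The 7 genes under the filter, Slc30a2, Slc30a3, Slc30a8, Slc30a10, Slc39a2, Slc39a5 and Slc39a12, were at most 1.08 CPM in any sample. Of the 12 tested family genes outside the members with a RefSeq window, 6 held a metal response element core: Slc30a4, Slc30a5, Slc39a3, Slc39a8, Slc39a11 and Slc39a13. The share over all windows was 25.7%, and Slc39a8, Slc39a10 and Slc39a11 had 2 windows each, either of which could hold a match.

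**Figure D4:**
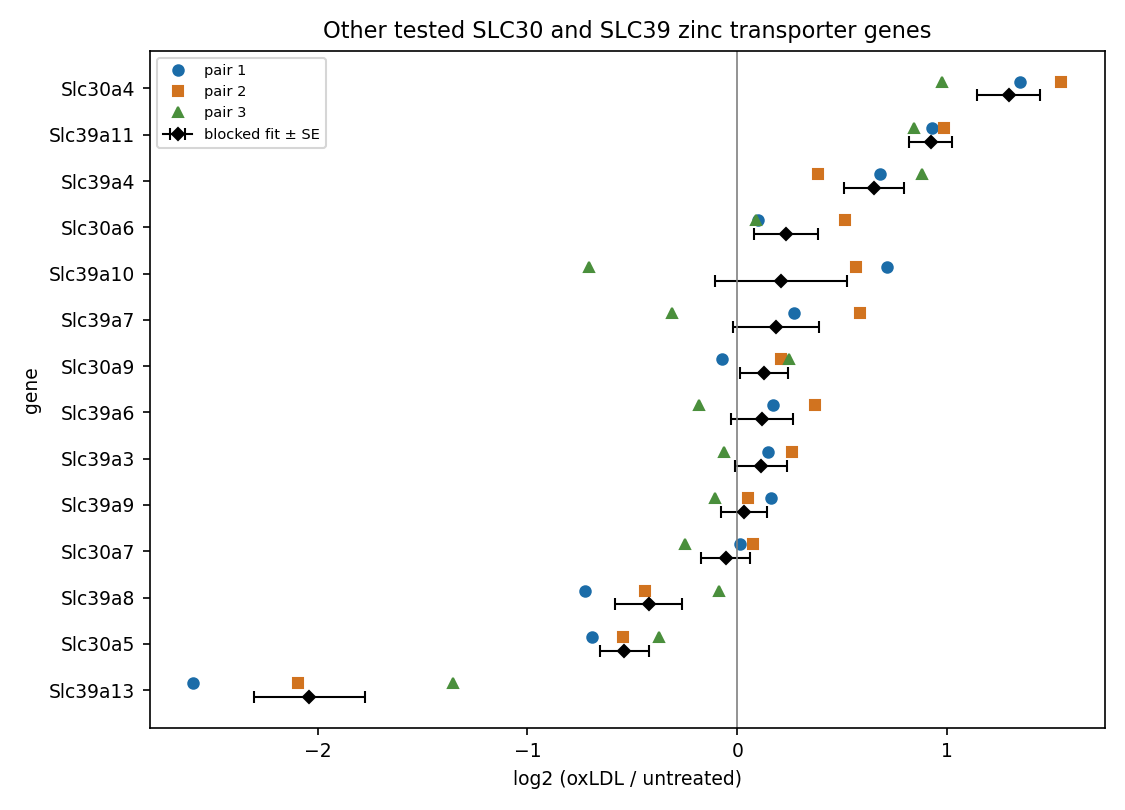
Log2 ratio of oxLDL to untreated (x axis) for the 14 other tested genes of the SLC30 and SLC39 families, in each numbered pair (coloured symbols) and in the blocked fit with its SE (black diamonds), ordered by the fit. Slc30a4 and Slc39a11 lie highest at 1.29 and 0.92 and Slc39a13 lowest at -2.04, with their 3 pairs on the same side of 0.

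Further genes of metal handling and of the hormone that also induces metallothioneins were taken from 5 lists. Of 24 tested genes of these lists outside both families, edgeR with the block called 0 (8 had an unadjusted p under 0.05), DESeq2 with the block called 8 and limma-voom 2. Of all 11400 tested genes, 29.0% had an unadjusted p under 0.05 in the blocked edgeR fit, and 16.3% were called by DESeq2 and 8.42% by limma-voom. These shares are the background for the counts of each list, which hold 2 to 9 tested genes, and nothing is read from those counts. The median log2 fold change of the 24 genes was -0.07. Among genes reported as MTF1 targets, Gclc, the catalytic subunit of glutathione synthesis, went from 28.6 ± 15.5 to 116 ± 26.2 CPM with groups apart. Its log2 difference of 2.13 ± 0.41 was short of the threshold in edgeR (adjusted p = 0.0575). DESeq2 and limma-voom with the block called Gclc (adjusted p = 8.73e-07 and 0.0416). Ndrg1 had a value of -1.47 ± 0.65 and log2 ratios of -2.95, -1.57 and 0.14.

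Metallothioneins also bind copper, and of 9 tested copper genes none was called by edgeR with the block, 2 had an unadjusted p under 0.05, and DESeq2 and limma-voom each called 1. Slc31a2, a low-affinity copper transporter of vesicles, had the largest difference at -1.36 ± 0.24 (edgeR adjusted p = 0.0503) and passed with DESeq2 size factors, with no count filter and with Rn45s left out (0.04996, 0.0411 and 0.0498). Sco2, which delivers copper to cytochrome oxidase, had a value of 0.91 ± 0.25. The importer Slc31a1 and the exporter Atp7a had values of -0.14 ± 0.17 and -0.26 ± 0.14.

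Of 4 tested importers of manganese and iron, edgeR with the block called 0, with 3 at an unadjusted p under 0.05 and 2 called by DESeq2. Slc11a2 had a value of -0.87 ± 0.20 and Slc11a1, the phagosomal NRAMP1, one of 0.85 ± 0.20. The calprotectin subunits S100a8 and S100a9, which bind zinc outside the cell, had values of -1.80 ± 1.197 and -2.01 ± 0.64 at levels under 14 CPM, with 0 called by edgeR, 1 at an unadjusted p under 0.05 and 1 called by DESeq2. The neutrophil markers Ngp and Cxcr2 had values of -1.94 ± 1.24 and -0.16 ± 0.25, the neutrophil list summed as given above with 3 of its 6 genes under 1 CPM in all samples, and the part of such cells in the calprotectin values was not tested.

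Glucocorticoids induce metallothioneins as well, and of 6 tested glucocorticoid-induced genes edgeR with the block called 0 (2 had an unadjusted p under 0.05, and DESeq2 called 2). Tsc22d3, also known as GILZ, measured 89.3 ± 10.1 CPM untreated and 53.3 ± 18.8 CPM exposed, a log2 difference of -0.81 ± 0.23. Klf9 measured 1.36, 3.02 and 16.4 CPM untreated and 17.1, 27.1 and 18.2 CPM with oxLDL, with log2 ratios of 3.52, 3.11 and 0.15. Values of Per1 and Fkbp5 were -0.10 ± 0.10 and -0.01 ± 0.22.

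The genes whose profile over the 6 samples was most like the mean of Mt1 and Mt2 were sought among the 8629 tested genes whose log2 CPM averaged 3 or more. Likeness was the root mean square difference of log2 CPM after each profile was centred on its own mean. The closest was Nckap5l, at 0.12. Its pairs stood at log2 ratios of 1.79, 2.01 and 0.75. It was followed by the glucuronosyltransferase gene Ugt1a6b (0.14), the cilium trafficking gene Tulp3 (0.14), the thioredoxin reductase gene Txnrd3 (0.16) and the kinase gene Cdc42bpa (0.17). Counts of Ugt1a6b and Cdc42bpa were fractions in all 6 samples. All 5 had their smallest log2 ratio in pair 3, as Mt1 and Mt2 did, which follows from picking them for likeness to that profile. For Slc39a14 the closest profiles were those of 4921524J17Rik (0.11), Fastkd5 (0.11), Micall2 (0.11), Nop58 (0.12) and Rpn1 (0.13).

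Among the members themselves, the profiles closest to each other by the same measure were those of Mtf1 and Slc39a14 (0.19). The profile of Mt1 was closer to that of Slc30a1 (0.46) than to that of Mt2 (0.55). The measure is not scaled for size of change, so a gene that changes more can lie farther off even where directions match. In pair 3, Mt1 and Mt2 were higher with oxLDL (log2 ratios of 0.88 and 1.12) and Slc30a1 was lower (-0.35). Mt2 was farthest from Slc39a1 (1.27). These distances describe 6 samples, of which pairs share a number, and carry no test.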

How the data were processed

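The authors deposited a table of expected counts per gene and one of CPM scaled by TMM. The submitters' processing notes name Bowtie2 2.1.0, RSEM 1.2.15 and edgeR, and list hg19, which is a human genome and not that of the mouse. Sources used here do not give the annotation, and no coordinates were taken from the tables. The deposited signal of the CPM table came out as whole reads for 100% of values (tolerance 0.005) and equalled the rounded expected counts in at least 99.9% of genes.

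Expected counts were rounded, filtered with filterByExpr (minimum count 10, minimum total count 15; 11400 genes kept), scaled with TMM (factors 0.942 to 1.06) and tested with the quasi-likelihood test of edgeR 4.0.16 in R 4.3.3 with robust estimation, the sample number as a block and Benjamini-Hochberg adjustment over all genes tested. DESeq2 1.42.0 and limma-voom (limma 3.58.1) were run beside it. Each SE is the log2 fold change divided by the root of F. CPM values use the TMM-scaled library sizes, and log2 ratios of pairs use a prior count of 2.

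The numbers were taken to pair the samples. Deviations from the group means correlated across genes at r = 0.66, 0.45 and 0.70 for numbers 1, 2 and 3. Untreated sample 2 reached 0.63 with oxLDL sample 1, above the 0.45 with its own number. Deviations within a group cancel out, and with both samples numbered 3 apart, samples 1 and 2 tend to deviate alike. These values therefore cannot tell whether samples 1 and 2 were rightly matched. The members, the lists and the choice of the block were made with earlier results of these data known. Named were the members, all tested genes of both transporter families, in other lists the genes called and the 2 with the largest differences, and the 5 closest profiles. The markers Emr1, Itgam, Cd68, Mrc1, Ngp and Cxcr2, and Slc31a1, Atp7a, Per1, Fkbp5 and Dusp1, were named after their values were seen.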

Additional observations from a re-analysis of the deposited data

How the results depend on the processing

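Blocked by sample number, edgeR called 672 genes, and without the replicate block it called 0 (1674 had an unadjusted p under 0.05). DESeq2 with the block called 1853. Leaving out each numbered pair in turn gave 0 to 3446, both counts of 0 (1613 and 1617 at an unadjusted p under 0.05) being those without pair 1 or pair 2. Of the transporter genes outside the members, 3 were called with the block, 0 without it, 5 by DESeq2 and 0 to 7 with a pair left out. Of the other lists, 0 were called in the fit reported (8 at an unadjusted p under 0.05), 8 by DESeq2, 2 by limma-voom, 1 each with DESeq2 size factors, with no count filter and with Rn45s left out, and 0 to 10 with a pair left out. The log2 fold change of Dusp1, a glucocorticoid-induced gene, was -0.04, and ranged from -0.46 to 0.70 with a pair left out, the latter without pair 3. The cause of these changes was not tested.

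Some settings were chosen after seeing the data. Counts recovered from the deposited CPM table gave 672 calls. Without the block, leaving out untreated sample 3 gave 737 calls over all genes, 3 among the transporters, 3 in the other lists and a log2 fold change of Mt2 of 2.44; leaving out oxLDL sample 3 gave 31 calls over all genes, 0 among the transporters and 1.04 for Mt2. Over 14 alternatives each, Mt1 ranged from 1.16 to 1.63, Mt2 from 1.04 to 2.44 and Slc30a1 from 0.35 to 1.07 with no change of sign, whereas Mtf1 (-0.21 to 0.15) and Slc39a14 (-0.47 to 0.02) changed sign. Scaling by library totals moved the median of all genes by 0.10. The fits rest on 3 pairs, and Mt2 on as few as 63 counts in a library.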
